A study of Mus musculus with 9 samples.

Results

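Ctss and Ctsz encode cathepsin S and cathepsin Z, a pair of lysosomal cysteine proteases, and their transcripts were followed here in the hemibrains of young mice, aged mice and aged mice with renewed microglia. They were taken by symbol from a table of RPKM, which are read numbers scaled to the length of a transcript and to the mapped reads of its library, and are 2 of its 689 genes. The table holds only genes that the authors' model called on these same libraries, and the pair was picked from it with its pattern known. The levels and differences of Ctss and Ctsz are therefore given as a description, without a test.

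The mice were male C57BL/6 animals, with 3 per group and 1 library per mouse. Young controls (5 months by the labels) and aged controls (24 months) ate control diet for 6 weeks. Aged-repopulated mice (24 months) ate chow with PLX5622 for 2 weeks and then control diet for 4 weeks. PLX5622 inhibits CSF1R, the receptor on whose signal microglia depend to survive, and new microglia fill the brain once the drug is withdrawn. The labels give JAX as supplier of the young animals and NIA of the aged ones, so that supplier and age cannot be told apart. RNA came from frozen hemibrain, a mixture of all its cell types, in which fewer cells of a type and less RNA per cell cannot be told apart.

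Cathepsins are made as inactive precursors that mature in the acid lumen of endosomes and lysosomes, where they degrade proteins delivered by endocytosis, phagocytosis and autophagy. Cathepsin S is an endopeptidase best known for trimming the invariant chain from MHC class II molecules in antigen-presenting cells, and unlike most of its relatives it stays active at neutral pH. In brain it is chiefly a product of microglia. Cathepsin Z, also called cathepsin X, removes single residues from the C-terminus of its substrates and is also prominent in cells of the myeloid lineage.

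Ctss (ENSMUSG00000038642.10) lies on the plus strand of chromosome 3, at chr3:95526786-95556403 of GRCm38, and its longest transcript has 8 exons and 1355 bases. Ctsz (ENSMUSG00000016256.10) lies on the minus strand of chromosome 2, at chr2:174427493-174439039, with 6 exons and 1441 bases. Ctsz shares 10 exonic bases with Nelfcd on the opposite strand, and Ctss holds the pseudogene Hmgb1-ps5 outside its exons. None of the 50-base stretches of the basic transcripts of either gene (0 of 1358 over the 2 transcripts of Ctss and 0 of 1392 for Ctsz) occurred in transcripts of another gene. The 250 bases before each start site, from RefSeq on GRCm38.p6, are printed because the 2 genes were higher in the same groups. The Ctss window spans chr3:95526536-95526785 on the plus strand and the Ctsz window spans chr2:174439040-174439289 on the minus strand, and capitals mark the motifs found.
Ctss: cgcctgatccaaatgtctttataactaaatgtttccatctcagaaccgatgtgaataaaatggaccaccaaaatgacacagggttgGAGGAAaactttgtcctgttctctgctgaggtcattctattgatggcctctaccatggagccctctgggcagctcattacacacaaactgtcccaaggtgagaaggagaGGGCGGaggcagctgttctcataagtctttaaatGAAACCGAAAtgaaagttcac
Ctsz: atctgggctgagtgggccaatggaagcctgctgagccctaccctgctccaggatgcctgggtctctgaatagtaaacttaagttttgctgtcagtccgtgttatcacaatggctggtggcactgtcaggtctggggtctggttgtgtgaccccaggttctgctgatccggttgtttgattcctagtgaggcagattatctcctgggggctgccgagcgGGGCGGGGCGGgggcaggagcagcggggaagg

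The windows differed in composition. The Ctss window was 44.8% GC with 4 CpG dinucleotides and the Ctsz window was 58.8% GC with 7, where the medians over 32817 windows of this length were 52.4% and 6. On both strands, 4 motifs were searched. CACGTG, the E-box core of sites for the lysosomal regulator TFEB, was in neither window and in 6.02% of all windows. GAGGAA, the core of sites for the myeloid factor PU.1, occurred once in the Ctss window, 164 bases before the start, and not in the Ctsz window, with a share of 23.3% over all windows. A pair of GAAA separated by 2 bases, the core repeat of sites for interferon regulatory factors, and GGGCGG, the GC box, were added after the windows had been read. The GAAA pair was found in the Ctss window 21 bases before the start, against 2.97% of all windows, and not in that of Ctsz. GGGCGG was found 55 bases before the start of Ctss and at 32 and 27 bases before that of Ctsz, where the 2 matches overlap by 1 base, against 32.7% of all windows.

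Over the whole table, the summed RPKM per library was between 22242 and 22330 in young controls, between 23629 and 24853 in aged controls and between 22861 and 23632 in aged-repopulated mice. The median log2 difference of all 689 genes between aged and young controls was 0.10. Centring each library on its median moved this by -0.11, to -0.01. Among 6 microglial markers of the table other than Ctss (from a list of 27), the summed RPKM was 84.7 to 91.4 in young controls, 133 to 162 in aged controls and 123 to 187 in aged-repopulated mice. These 6 were Csf1r, C1qa, C1qb, C1qc, Tyrobp and Laptm5, and the rest of the 27 were not in the table. Read depth is unknown.

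Ctss was the higher of the pair in all 9 libraries, and its level was about 1.8 times as high in aged as in young controls. It stood at 27.95, 28.1 and 27.9 RPKM in the 3 young controls, at 51.2, 53.0 and 45.3 RPKM in the aged controls, and at 69.7, 46.4 and 48.8 RPKM in the aged-repopulated mice. No library of an aged animal reached down to the young range, and the young controls lay within 1.01 times of one another. The group means were 27.98 ± 0.0939, 49.8 ± 4.02 and 55.0 ± 12.8 RPKM (SD, n = 3 each). The aged mean was 78.2% above the young mean, a difference of 0.81 in log2(RPKM + 1) with a standard error of 0.13, and was the 9th highest difference of the table. Between aged-repopulated and aged controls the groups overlapped, with means 10.3% apart and a log2 difference of 0.12 (SE 0.13). Against young controls the aged-repopulated mice stood 96.4% higher, by 0.93 in log2 (SE 0.13), which was the 4th highest difference in that comparison. Standard errors here and below come from 1 fit of all 9 libraries, so the spread of all 3 groups enters each. For Ctss with only the 2 groups compared, they were 0.057 with age, 0.145 between the aged groups and 0.136 against young controls.

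Ctsz had the same order of groups over a smaller range. Its levels were 15.8, 16.2 and 15.5 RPKM in young controls, 24.3, 25.8 and 20.5 RPKM in aged controls, and 28.9, 21.6 and 25.7 RPKM in aged-repopulated mice. Again every aged library, with or without repopulation, lay above all young ones, while the 2 aged groups ran into each other. The means were 15.8 ± 0.359, 23.5 ± 2.70 and 25.4 ± 3.68 RPKM (SD, n = 3 each). Aged controls were 48.5% above young controls, by 0.54 in log2 (SE 0.10), the 18th highest difference of the table. Aged-repopulated mice were 7.99% above aged controls, by 0.10 in log2 (SE 0.10), and 60.4% above young controls, by 0.64 in log2 (SE 0.10). The last of these ranked 13th. For both genes the order was thus young control, aged control, aged repopulated, with the last 2 not apart beyond their spread.

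**Figure D1:**
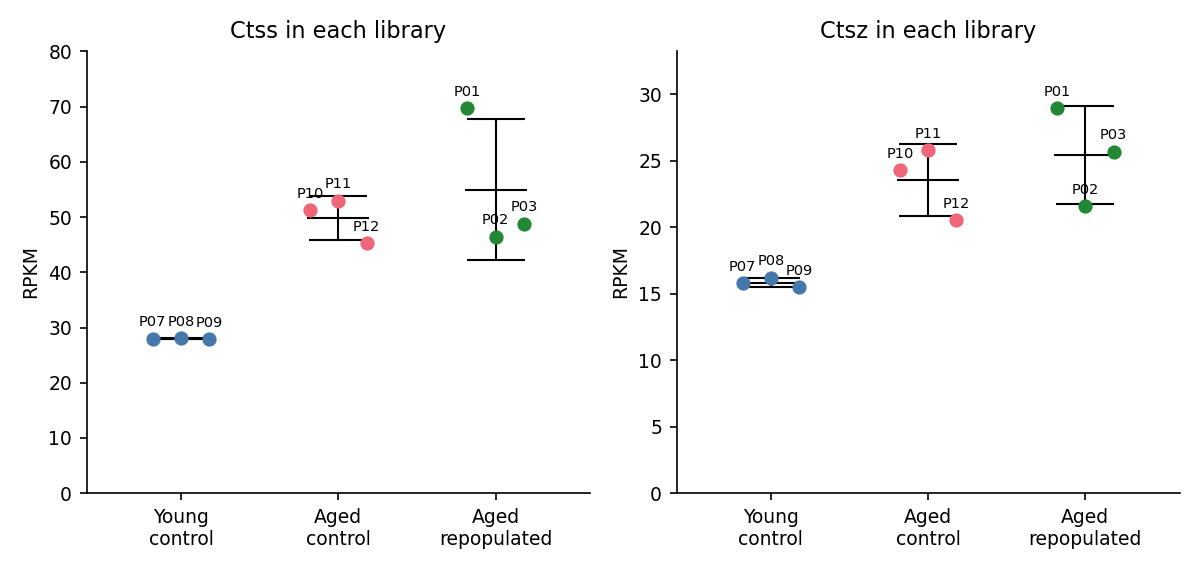
RPKM of Ctss and Ctsz in each of the 9 libraries, by group, with 1 point per mouse and the group mean with its SD (P07 to P09, P10 to P12 and P01 to P03 are replicates 1 to 3 of the young control, aged control and aged-repopulated groups). The young controls sit close together at 27.9 to 28.1 for Ctss and 15.5 to 16.2 for Ctsz, below every aged library, and the 2 aged groups overlap.

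These differences are to be read against a table that was selected for change. Every gene in it, the markers and lysosomal genes described below included, was called by the authors' model on these same libraries, so that limma calls and adjusted p-values within the table describe its genes relative to one another and are not independent evidence of a difference. The authors' filter of 10 RPKM did not hold in each library: 68 of the 689 genes were under it in at least 1 library and 0 in every library, and 24, Laptm5, Man2b1 and Tyrobp among them, had a mean under 10 RPKM in young controls only, so that they could pass through the groups where they were higher. Between aged and young controls, 50.7% of the 689 genes were higher without overlap of the groups, and limma called 46.3% higher and 16.5% lower at an adjusted p of 0.05. Between aged-repopulated and young controls, 31.5% of genes were higher without overlap, with 4.21% called higher and 0.726% called lower. In the comparison of aged-repopulated with aged controls, 2.9% were called higher and 5.81% lower. The split of these calls depended on the scaling. With age 319 of 433 calls were higher, but 78 of 293 after centring, 88 of 277 after quantile normalization and 62 of 158 after a correction for transcript length. Against young controls 29 of 34 calls in aged-repopulated mice were higher, but 23 of 61 after centring, 18 of 43 after quantile normalization and 27 of 73 after the length correction. Between the aged groups 20 of 60 were higher, but 111 of 133 after centring and 52 of 73 after quantile normalization. With 1 library left out, the calls between the aged groups numbered from 2 (without aged-repopulated replicate 3) to 141 (without aged control replicate 1), and those against young controls from 11 (without young control replicate 2) to 59 (without aged-repopulated replicate 2). Absence of overlap with young controls therefore does not set Ctss and Ctsz apart from the table, and their ranks describe how far they lay from it. The comparisons share libraries: the aged controls enter 2 of them, as do the young controls and the aged-repopulated mice.

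**Figure D2:**
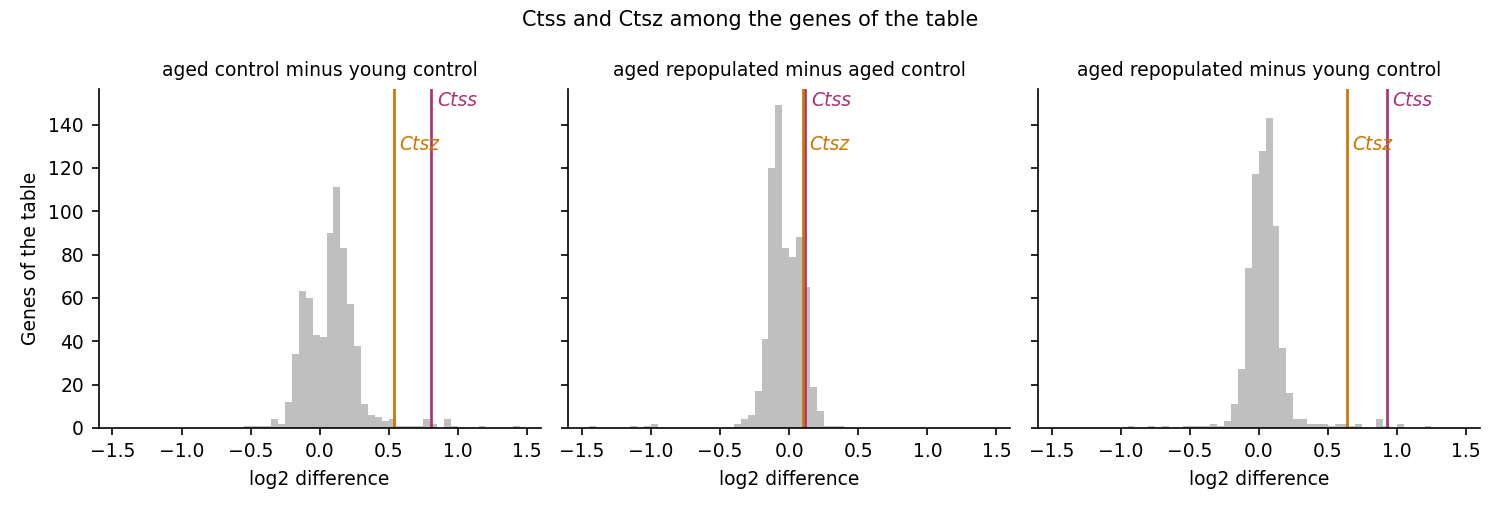
Histograms of the log2 difference of all 689 genes in each of the 3 comparisons (horizontal axis, difference in log2(RPKM + 1), vertical axis, number of genes), with vertical lines at Ctss and Ctsz. Both lie near the upper end in the comparisons with young controls (0.81 and 0.54 with age, 0.93 and 0.64 with age and repopulation), and nearer the bulk between the aged groups (0.12 and 0.10).

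Spread between mice of a group was uneven for both genes. In young controls the SD of log2 Ctss was 0.00467, the 680th of 689 from the highest, where the table's median was 0.0385. In aged-repopulated mice it was 0.314, the 10th highest, against a median of 0.0470. The SD of log2 Ctsz went from 0.0307 in young controls to 0.163 in aged controls and 0.204 in aged-repopulated mice, where it ranked 445th, 37th and 18th. The upper end of the aged-repopulated range was replicate 1 for both genes. Relative to the group mean in log2, this library stood at 0.36 for Ctss, 0.19 for Ctsz and 0.33 for the mean of the 6 microglial markers. It held the highest value of its group for 6 of 6 microglial markers and for 259 of all 689 genes. Without it, the log2 difference between aged-repopulated and aged controls was -0.062 for Ctss and 0.0077 for Ctsz. In the aged controls, replicate 2 was likewise the highest for both genes and for 6 of 6 markers (296 of all 689 genes), and replicate 3 was the lowest for both and for 5 of 6 (232 of 689). The part of microglial content in the differences between mice was not tested.

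The balance between the cathepsins also varied by group. The ratio of Ctss to Ctsz RPKM was 1.77, 1.73 and 1.799 in young controls and 2.11, 2.06 and 2.21 in aged controls, so that these groups did not overlap. In aged-repopulated mice it was 2.41, 2.15 and 1.90, which spans the aged control range and stays above the young one. The means were 1.77 ± 0.0341, 2.12 ± 0.0767 and 2.15 ± 0.254 (SD, n = 3 each).

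Set against the microglial markers, Ctss and Ctsz differed. The log2 level of Ctss minus the mean log2 level of the 6 markers was 0.898 to 0.999 in young controls, 1.09 to 1.204 in aged controls and 1.22 to 1.26 in aged-repopulated mice. On this scale the young range lies apart from both others, while the 2 aged ranges come close without overlapping. As a share of the markers' summed RPKM, Ctss was at 0.305 to 0.330 in young controls, 0.328 to 0.361 in aged controls and 0.373 to 0.377 in aged-repopulated mice. Here young and aged controls overlapped, whereas the 2 aged groups lay apart on both scales. How often such ratios lie apart for other genes was not computed. By RPKM alone, 105 of the 689 genes were higher and 153 lower without overlap between the aged groups. Between the aged groups, Ctss set against single markers was apart for C1qb and C1qc and overlapped for the other 4, with a difference of -0.0081 against Laptm5. For Ctsz the same quantity was 0.09 to 0.21, 0.01 to 0.16 and 0.02 to 0.33, and all 3 ranges overlap. The outcome depended on the marker it was set against. With age, Ctss was further from young controls than 4 of the 6 markers, the ratio being apart between the groups for Csf1r and Laptm5 and overlapping for the other 4. Ctsz was further than 2 of 6: its ratio was higher in aged controls against Csf1r and Laptm5, and lower against C1qa, C1qb, C1qc and Tyrobp, without overlap in each case.

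**Figure D3:**
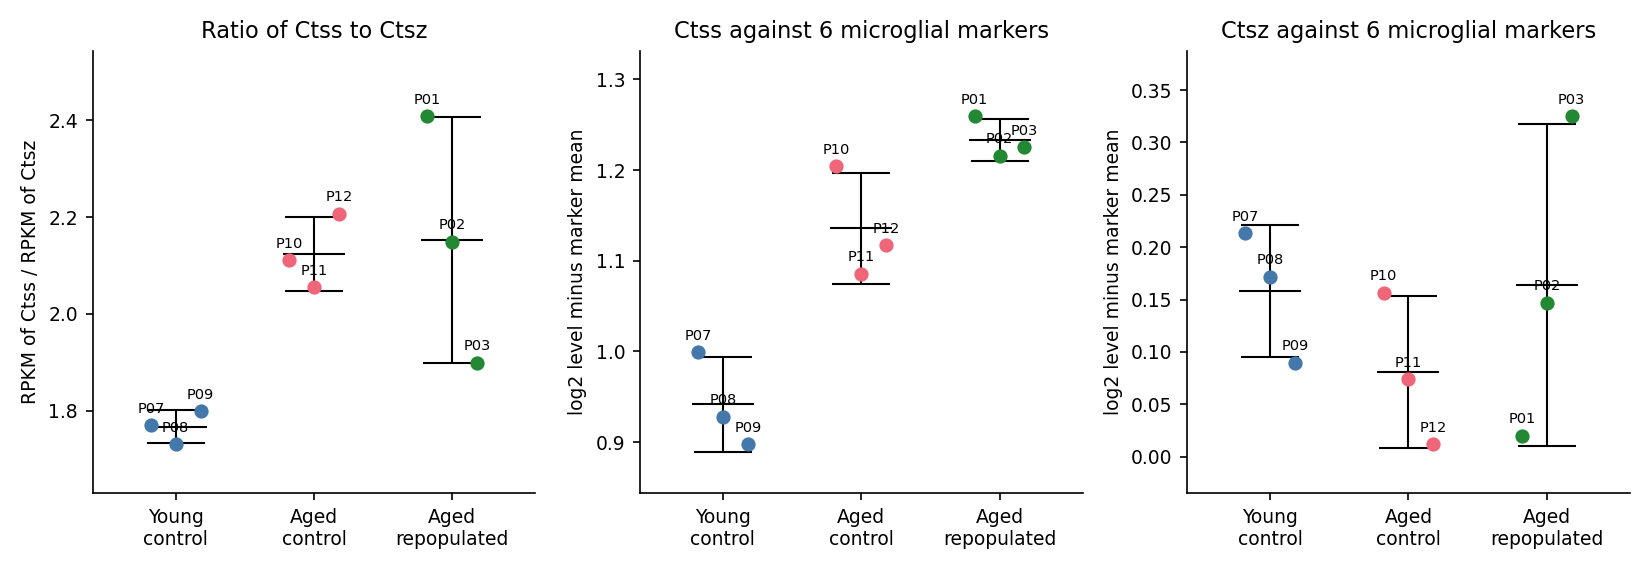
For each library, the ratio of Ctss to Ctsz RPKM, and the log2 level of each gene minus the mean log2 level of 6 microglial markers, with the group mean and SD as bars. The ratio is 1.73 to 1.799 in young controls and 1.90 to 2.41 in the aged groups, Ctss stands further above the mean log2 level of the markers in both aged groups than in young controls (against their summed RPKM, young and aged controls overlap), and Ctsz lies 0.01 to 0.33 above them with all groups overlapping.

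Most of the markers themselves rose with age. In limma with Benjamini-Hochberg adjustment over the table, 5 of the 6 were called higher in aged than in young controls (46.3% of the table), with a median log2 difference of 0.78 over the 6, against 0.10 for all genes. Under centring, quantile normalization or the length correction, 4 were called (C1qa, C1qb, C1qc and Tyrobp) and Laptm5 was not. C1qa, a subunit of the complement initiator C1q, rose by 0.90 (adjusted p = 0.0071), from 18.5 ± 0.612 to 35.6 ± 4.19 RPKM (SD). Tyrobp, the adaptor of TREM2 and related receptors, rose by 0.79 (adjusted p = 0.0066). The young control means of Tyrobp and Laptm5, 9.97 and 8.09 RPKM, were under the authors' filter of 10 RPKM. Both could thus pass through the aged groups, which limits what their differences from young controls and the counts with them show. The remaining marker, Csf1r itself, stood at 15.1 ± 0.576 and 16.1 ± 0.864 RPKM (SD), with a log2 difference of 0.08 (limma adjusted p = 0.27). Between aged-repopulated and aged controls 0 of 6 were called by limma (2.9% of the table higher and 5.81% lower). Of the 6, 0 had an unadjusted p below 0.05, against 271 of 689 genes, and their log2 differences ran from -0.07 to 0.13. Against young controls, 5 of 6 were again called higher in aged-repopulated mice (4.21% of the table), with a median of 0.72. Without young control replicate 2 or 3 that count was 1, and without replicate 1 it was 2. Without moderation of the variance it was 0.

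Markers of other cell types also differed between the groups. Over the table, limma called 46.3% of genes higher and 16.5% lower with age, and 2.9% higher and 5.81% lower between the aged groups. No gene of the lists for macrophages and blood (of 12) or astrocytes (of 10) was in the table. Opalin, a myelin protein and the 1 oligodendrocyte marker of 10 in the table, fell by 0.53 on the log2 scale with age (limma adjusted p = 0.013). Between the aged groups its difference was 0.37, the highest of the 689 genes, with overlap of the groups (limma adjusted p = 0.093), and it was called higher there after centring. Of 3 endothelial markers, Itm2a fell by 0.46 with age (limma adjusted p = 0.0096) and Ly6c1 rose by 0.37 (limma adjusted p = 0.012), the latter not called after the length correction. Slco1a4, an organic anion transporter of brain endothelium, fell by 0.38 from aged controls to aged-repopulated mice (limma adjusted p = 0.012), a call kept in 7 of 9 fits with a library left out and lost without replicate 3 of either group. It was also lower in aged-repopulated mice than in young controls, by -0.41 (limma adjusted p = 0.0045), in 9 of 9 such fits. Between the aged groups Ly6c1 had a difference of -0.31 without overlap (limma adjusted p = 0.061) and Itm2a one of 0.12 with overlap (limma adjusted p = 0.38). Over the table, 153 of 689 genes were lower without overlap in that comparison. Only the aged control mean of Ly6c1, 11.9 RPKM, was over the authors' filter of 10 RPKM. Its means of 9.01 RPKM (young) and 9.51 RPKM (repopulated) were under it. Ly6c1 could thus pass through the group where it was highest, which limits what both of its differences from that group show. Itm2a was called lower in aged-repopulated mice than in young controls after centring and after the length correction. Of 3 neuronal markers, limma called Gad1 and Rbfox3 higher with age (46.3% of the table) and Map2 lower (16.5%), by 0.17, 0.16 and -0.12 in log2. However, Gad1 and Rbfox3 were not called under any of the 3 other scalings, nor Map2 after the length correction. With a library left out, the calls with age held in 6 of 9 fits for Gad1 and in 7 of 9 for Map2. Rbfox3 was also called lower in aged-repopulated than in aged controls, by -0.17, in 1 of 9 fits with a library left out and under none of the other scalings, and Map2 was called higher there after centring. The part of these cell types in the differences of Ctss and Ctsz was not tested.

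With age, the other lysosomal genes showed smaller differences than the cathepsin pair, which had been picked with its pattern known. Of 112 genes on the lists for cathepsins, other hydrolases, lysosomal membrane, proton pump and sorting, 11 besides Ctss and Ctsz were in the table, and limma called 5 of them higher with age and 0 lower, a share close to the 46.3% called higher over the table. Their median log2 difference was 0.15, with a range of -0.04 to 0.34. Hexa, an enzyme of ganglioside breakdown, Man2b1, the lysosomal alpha-mannosidase, Lamp2, a major membrane glycoprotein, Laptm5, a membrane protein of blood-lineage cells, and Atp6v0b, a subunit of the proton pump that acidifies the lumen, were the 5. Laptm5 is also on the microglial list. Laptm5 and Man2b1 had young control means under the authors' filter of 10 RPKM and could pass through the aged groups, which limits what their calls show. These calls depended on the scaling. After centring of libraries on their median, 0 were called higher and 3 lower (Hgsnat, Ap3d1 and Tspan7), and after quantile normalization or a correction for transcript length 0 were higher and 1 lower (Hgsnat). Without young control replicate 1 or aged control replicate 2, 2 were called, and without aged control replicate 1, 3 were called. Ctss and Ctsz stayed higher in aged than young controls under centring, at 0.70 and 0.43, and under the length correction, at 0.59 and 0.32.

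Lgmn, the asparaginyl endopeptidase legumain that matures several cathepsins, was the only further gene of the 16 on the cathepsin list in the table. It stood at 49.6 ± 1.09, 51.3 ± 2.51 and 51.9 ± 3.75 RPKM (SD) in young, aged and aged-repopulated mice. Its log2 difference with age was 0.05 (limma adjusted p = 0.46), and the groups overlapped in all 3 comparisons. Grn, the precursor of the lysosomal granulins, had a difference with age of 0.20 (limma adjusted p = 0.058). Between aged-repopulated and aged controls 0 of the 11 lysosomal genes were called by limma, against 2.9% higher and 5.81% lower over the table, and 2 had an unadjusted p below 0.05, against 271 of 689. Their log2 differences ran from -0.10 to 0.13, with Laptm5 above Ctss and Ctsz. After centring, Hgsnat and Ap3d1 were called higher, and after quantile normalization Hgsnat was. Against young controls 2 were called higher in aged-repopulated mice (4.21% of the table), namely Laptm5 and Lamp2, with a median of 0.08 over the 11. The number called was 0 without any 1 of the 3 young controls, and 1 without aged control replicate 2 or aged-repopulated replicate 1 or 3. It was also 0 after quantile normalization, with a pseudocount of 10, at a mean of 20 RPKM or more and without moderation of the variance, and 1 after centring (Laptm5). Of the 11, 10 had a difference above 0, against 447 of all 689 genes, and 5 were higher without overlap (31.5% of the table). The number above 0 was 8 after centring, 6 after quantile normalization and 7 after the length correction. None of the 10 cathepsin inhibitors (cystatins among them) and none of the 8 genes of the MHC class II pathway, in which cathepsin S acts, was in the table.

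**Figure D4:**
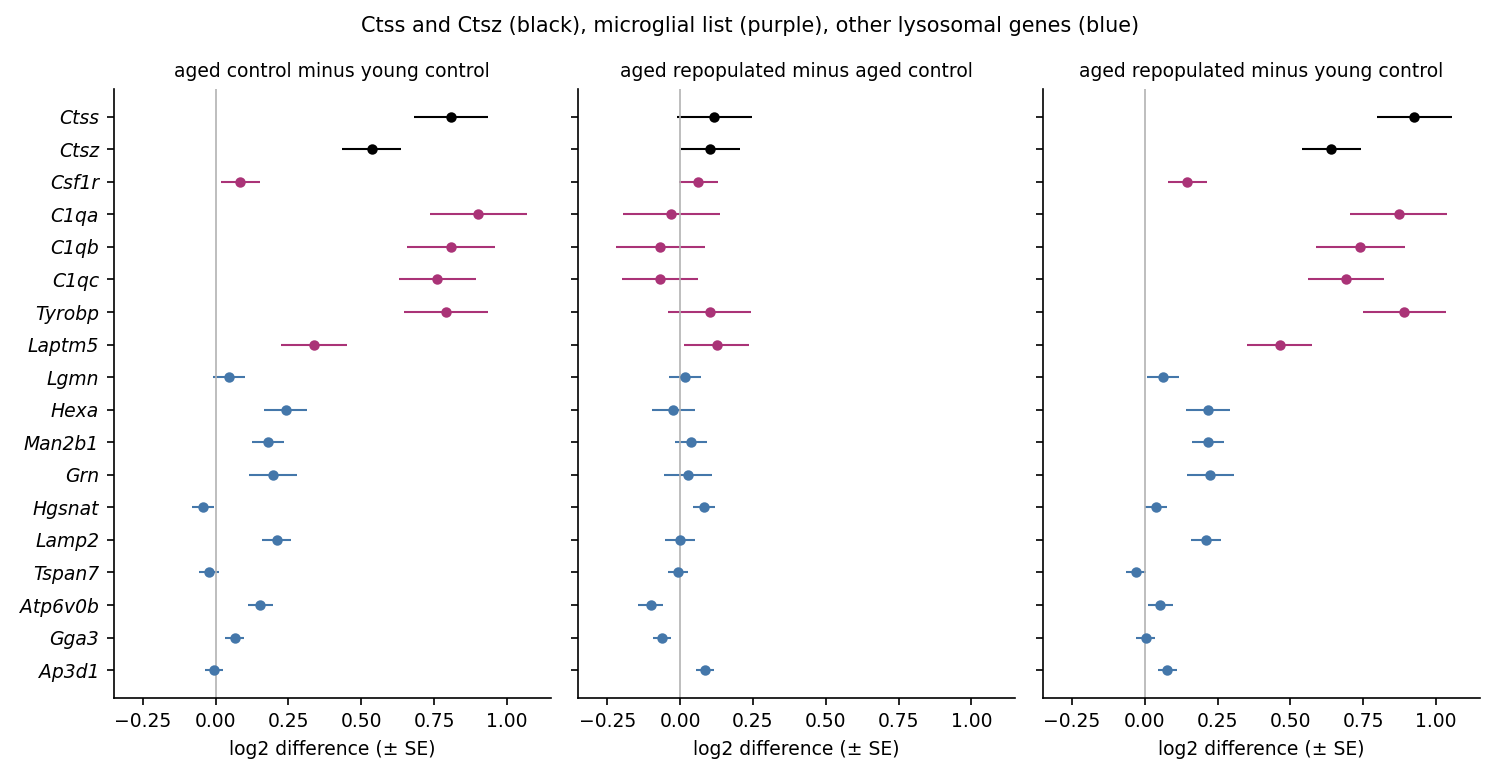
Log2 difference in each of the 3 comparisons for Ctss and Ctsz (black), the microglial markers and the other lysosomal genes of the table, with 1 point per gene and its standard error as a bar. With age, C1qa, C1qb, C1qc and Tyrobp lie at 0.76 to 0.90 beside Ctss, whereas the lysosomal genes lie between -0.04 and 0.34, below Ctsz at 0.54.

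The genes with the most similar profiles were found as those with the smallest mean absolute difference in log2 level from Ctss or Ctsz over the 9 libraries, after each gene had been centred on its own mean. For Ctss they were Tyrobp (0.0638), C1qa (0.0694), H2-K1 (0.0968), Ifi27 (0.104), C1qc (0.107) and B2m (0.114), where the median of the table was 0.361. H2-K1 and B2m encode the heavy and light chains of MHC class I, and Ifi27 is an interferon-induced gene. For Ctsz they were Itgb5 (0.0794), Laptm5 (0.0999), Pisd (0.106), Hapln2 (0.116), C1qc (0.116) and C1qb (0.134), with a table median of 0.258. Itgb5 encodes an integrin beta subunit, Pisd a mitochondrial phosphatidylserine decarboxylase and Hapln2 a link protein of the matrix at nodes of Ranvier. Ctsz was only the 8th nearest gene to Ctss, and Ctss the 10th nearest to Ctsz, of the genes considered, at 0.139.

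When each gene was centred on its group means instead, so that only differences between mice of a group remained, the order changed. Laptm5 (0.0437), C1qa (0.0465), C1qc (0.0478), Ctsz (0.0550), Ly6c1 (0.0599) and Grn (0.0615) were nearest to Ctss, against a median of 0.119. Grn (0.0367), Ftl1 (0.0395), Acadl (0.0447), Samd14 (0.0501), S100a13 (0.0515) and Lgmn (0.0528) were nearest to Ctsz, against a median of 0.09999, and Ctss was 8th. Grn and Lgmn are lysosomal, and Ftl1 is the ferritin light chain. The likeness rests on 9 libraries that also share their processing and normalisation.

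**Figure D5:**
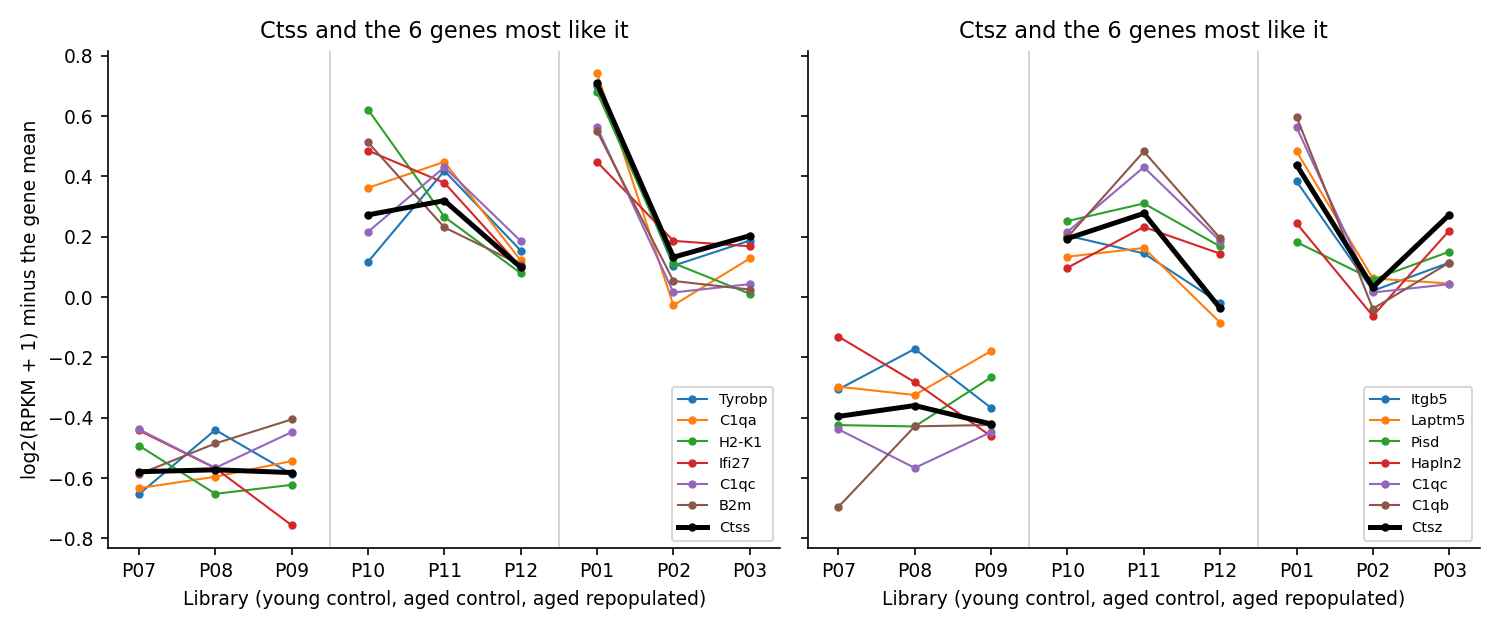
Log2 level of Ctss, Ctsz (black) and the 6 genes most like each, centred on the gene mean, in the 9 libraries by group, with lines joining libraries of a group only to guide the eye. All the genes shown are lowest in young controls, and aged-repopulated replicate 1 (P01) stands above the other aged libraries for every gene shown except Ifi27 and Pisd.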

How the data were processed

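Frozen hemibrain RNA-seq was used from 3 mice per group, 1 library each. Animals with young repopulated or aged eliminated microglia are not analysed here. The labels share no replicate number between groups, so no pairing was used. Per the labels, the authors called bases with Casava 1.8.2 and aligned reads to mm10 with ELAND. They computed and deposited RPKM per gene, kept genes above 10 RPKM (not in every library, since the lowest value of the table is 3.46) and fitted a generalized linear model with age and microglial state. The deposited table holds the 689 genes called, unpooled, with the authors' F and t scores and p-values, which were not used. The counting step is not given in the sources used here. No whole-read steps were found in RPKM (best mean cosine 0.277 to 0.313 per library, 100 genes), so depth is unknown and precision rests on the spread between 3 mice. No library column was left unmapped (0).

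From the deposited RPKM, log2(RPKM + 1) was fitted with limma 3.58.1 in R 4.3.3, all 9 libraries in 1 fit, with Benjamini-Hochberg adjustment over 689 genes at 0.05. Ctss, Ctsz, the gene lists and the rule for named genes (both genes, the 6 most alike, and members of the lysosomal and microglial lists) were chosen with earlier results of these data known. A gene of these lists is not reported here and was left out of the lists and of the search for alike genes, but not of the fit. Markers of other cell types, proton pump and sorting genes were named after their values were seen. Gene models were GENCODE M21 on GRCm38. Tested on simulated data, the fit recovered 79.5% of 200 changed genes at a log2 change of 0.2 and 97% at 0.4. The simulated noise of a gene had equal spread in every group, unlike that of Ctss and Ctsz, so these shares need not hold for them. Alternatives were pseudocounts of 0.1 and 10, median centring, quantile normalization, a loess correction for transcript length (686 genes), a mean of at least 20 RPKM (341 genes), only the groups compared, no variance moderation, and each library left out. Python 3.11.15, pandas 2.3.3 and matplotlib 3.10.9 were used.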

Additional observations from a re-analysis of the deposited data

How the results depend on the processing

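Depth is unknown, and with 3 mice a group the aged-repopulated libraries limit what can be read of Ctss and Ctsz. Over 17 alternatives, both genes were higher in aged and aged-repopulated mice than in young controls each time. The difference between the aged groups kept its sign except for Ctss without aged-repopulated replicate 1. Some of these settings cannot move a given log2 difference of these genes by construction. They are the 20 RPKM filter, only the groups compared, no variance moderation, and leaving out a library of the third group. With each library left out in turn, the log2 difference of Ctss ran from 0.76 to 0.87 with age, from -0.062 to 0.23 between the aged groups and from 0.75 to 1.03 against young controls, and that of Ctsz from 0.47 to 0.63, from 0.0077 to 0.21 and from 0.54 to 0.75. The length correction gave 0.59 for Ctss and 0.32 for Ctsz with age, and a pseudocount of 10 gave 0.37 for Ctsz with age and 0.45 against young controls, where a larger pseudocount shrinks the difference by construction. Counts of genes called are given next as lysosomal list, microglial list and all genes. With a library left out they ran from 2 to 6, from 4 to 5 and from 269 to 438 with age, were 0 and 0 in the lists between the aged groups with 2 (without aged-repopulated replicate 3) to 141 (without aged control replicate 1) over all genes, and ran from 0 to 3, from 1 to 5 and from 11 (without young control replicate 2) to 59 (without aged-repopulated replicate 2) against young controls. With age, the lysosomal count was 1 under quantile normalization, 1 under the length correction, 2 at 20 RPKM or more, 3 after centring and 3 without moderation, the microglial count was 3 at 20 RPKM or more, and the count over all genes was 277 under quantile normalization, 158 under the length correction and 251 at 20 RPKM or more. Centring left 78 of 293 calls over all genes higher, against 319 of 433. Between the aged groups, the lysosomal count was 2 after centring and 1 after quantile normalization, and the count over all genes was 133 after centring, 6 with the length correction, 31 at 20 RPKM or more, 5 with only the groups compared and 5 without moderation. Against young controls, the lysosomal count was 0 with a pseudocount of 10, 1 after centring, 0 after quantile normalization, 0 at 20 RPKM or more and 0 without moderation, the microglial count was 3 at 20 RPKM or more and 0 without moderation, and the count over all genes was 61 after centring, 73 with the length correction, 22 at 20 RPKM or more and 9 without moderation. Fewer genes were tested at 20 RPKM or more. For the other settings the cause was not tested.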
